A study of Mus musculus with 8 samples.

Results

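Secreted antagonists of Wnt signalling were described in mouse heart: 7 genes out of 33105 in the count table, namely Sfrp1, Sfrp2, Sfrp4, Sfrp5, Frzb, Dkk2 and Wif1. They were chosen by gene symbol through the Ensembl identifiers of the table, with no use of their measured values in the selection rule. Earlier results of these data were known when the choice was made. Heart tissue of C57BL/6J mice was sequenced in 4 libraries labelled Sham and 4 labelled MR, where MR stands for mitral regurgitation, a leak of the mitral valve made by minimally invasive surgery. The study asked which signalling pathways accompany the hypertrophy of a volume-loaded heart and which genes characterise mitral regurgitation. No allele or drug is named in either group. The sources used here do not give the part of the heart, the age of the mice or the time after the operation.

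Wnt proteins are secreted signals that bind frizzled receptors and LRP co-receptors at the cell surface, and in the canonical branch this stabilises beta-catenin, which then works with TCF/LEF factors on target genes. Antagonists of the SFRP family (Sfrp1, Sfrp2, Sfrp4, Sfrp5 and Frzb, also called Sfrp3) carry a cysteine-rich domain like that of the frizzled receptors and bind Wnt proteins outside the cell. Wif1 also binds Wnt ligands, while Dkk2 acts on the LRP co-receptors. In the heart these genes are known mainly from fibroblasts and other stromal cells, and Sfrp2 is also known for a part in procollagen processing.

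The 7 genes lie on 6 chromosomes of GRCm38, all annotated as protein-coding. Sfrp1 spans chr8:23411502-23449632 (+), Sfrp4 chr13:19623104-19632994 (+) and Sfrp5 chr19:42197971-42202252 (−). Frzb spans chr2:80411970-80447625 (−), Wif1 chr10:121033960-121100650 (+), and chromosome 3 holds both Sfrp2 at chr3:83766321-83774316 (+) and Dkk2 at chr3:132085292-132180304 (+). Their exons cover 1900 bases in Sfrp5 to 4372 bases in Sfrp1. No stretch of 50 bases was shared between exons of any pair of the 7 genes, so the members of the SFRP family could be told apart by reads of that length. Sfrp2 overlaps the antisense gene Gm26771 over 347 exon bases, which hold 12% of its 50-base stretches. The sources used here do not give the strand setting of the counting, so reads from Gm26771 and Sfrp2 cannot be told apart there. Gm26771 has no row in the count table and could not be analysed.

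The stretch upstream of the start site is shown for Sfrp2, which had the largest fitted difference between the groups, and for Wif1, which had the smallest. Both come from the RefSeq promoter windows of GRCm38.p6, which matched 5 of the 7 genes and not Sfrp1 or Sfrp4. Bases that overlap the annotated gene were left out. Capitals mark GGGCGG, the GC box bound by SP factors, and TATAAA, the TATA box, on either strand.
Sfrp2, chr3:83766071-83766320 (+): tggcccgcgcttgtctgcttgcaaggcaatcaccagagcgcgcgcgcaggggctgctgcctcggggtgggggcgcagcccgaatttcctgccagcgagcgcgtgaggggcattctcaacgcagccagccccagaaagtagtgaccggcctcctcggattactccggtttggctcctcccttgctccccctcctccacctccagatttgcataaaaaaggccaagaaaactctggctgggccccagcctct
Wif1, chr10:121033754-121033959 (+): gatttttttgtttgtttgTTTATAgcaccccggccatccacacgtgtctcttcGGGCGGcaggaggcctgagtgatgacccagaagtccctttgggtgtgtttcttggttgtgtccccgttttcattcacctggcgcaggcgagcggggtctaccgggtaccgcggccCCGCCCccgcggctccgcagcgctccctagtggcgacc
The Sfrp2 stretch holds none of the 4 letter strings searched, which were the GC box GGGCGG, the TATA box TATAAA, the TCF/LEF core CTTTGA and the TEAD string GGAATG, each on both strands. In Wif1 GGGCGG begins 197 and 82 bases before the RefSeq start and TATAAA 232 bases before it. Frzb is the only one of the 5 matched genes with CTTTGA, 95 bases before its RefSeq start, but most of its window lies inside the first exon of a longer annotated transcript and is not printed. Of 32851 RefSeq windows, 16% hold CTTTGA, 14.7% GGAATG, 35.7% GGGCGG and 13.6% TATAAA. These matches describe letters and not bound sites.

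Total counts were 42291511 to 58658094 per library. Levels are given as CPM, counts relative to a common library total, after TMM scaling, which adjusts library totals for differences in composition, and 1 count equalled 0.017 to 0.0236 CPM. In the edgeR quasi-likelihood test of MR against Sham, 76 of 16603 genes passed a Benjamini-Hochberg adjusted p of 0.05, or 0.458%. The number of genes that passed turned most on Sham replicate 3. Without it 887 of 16813 genes passed, or 5.28%, while leaving out any other single library gave 3 to 93. In limma-voom the lowest quality weight, 0.398, went to Sham replicate 1, and Sham replicate 3 had 0.764. Calls of the antagonists that turn on either library are given with and without it. The labels do not say that the libraries came from separate mice, and each p-value therefore reflects only the spread among these 8 libraries, part of which may be technical. In bulk tissue, fewer cells of a type and less RNA per cell cannot be told apart.

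None of the 7 antagonists passed the threshold in edgeR with all 8 libraries. Of the 6 that could be tested, 3 (Sfrp1, Sfrp2 and Frzb) had an unadjusted p under 0.05, against 15.1% of all genes tested. Sfrp2 and Frzb were higher in MR, at 2.03-fold and 1.57-fold, while Sfrp1, the most abundant antagonist, was 1.18-fold lower. Sfrp4, Sfrp5 and Wif1 had overlapping groups and unadjusted p-values of 0.297, 0.306 and 0.98 in edgeR. Dkk2 was too low to be tested. The median log2 fold change of the 6 was 0.20, against 0.002 over all genes tested, with 3 of the 6 positive. Because the antagonists were chosen with earlier results of these data known, neither this median nor the share of low p-values is a test of the set.

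**Figure D1:**
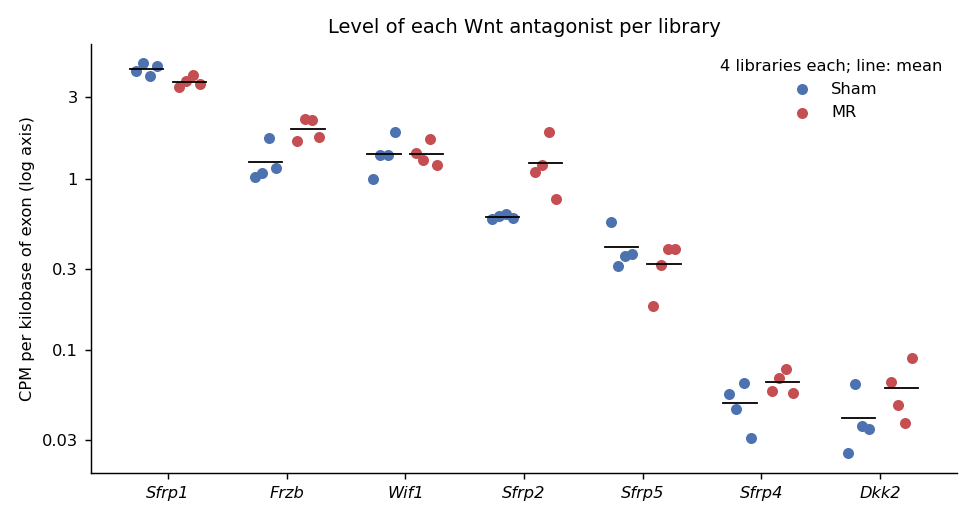
Level of each Wnt antagonist in every library, as CPM per kilobase of exon on a log axis, in 4 Sham (blue) and 4 MR (red) libraries; black lines are group means. For Sfrp2 alone the MR points (0.762 to 1.88) lie wholly above the Sham points (0.582 to 0.627).

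Sfrp2 encodes a secreted antagonist that is also known to bind the procollagen proteinase Bmp1. Its CPM was 1.25, 1.30, 1.35 and 1.27 in Sham libraries 1 to 4 and 2.35, 2.59, 4.04 and 1.64 in MR libraries 1 to 4. Every MR library thus lay above every Sham library, as was so for 4.19% of all genes tested, and MR replicate 4 came nearest to Sham. The means were 1.29 ± 0.0422 and 2.65 ± 1.01 CPM (SD, n = 4), from 54 to 60 and 98 to 174 counts per library. The Sham libraries varied by 3.26% and the MR libraries by 38.0% (coefficient of variation). The log2 fold change was 1.02 (SE 0.24), with an adjusted p of 0.0697 in the edgeR quasi-likelihood test after Benjamini-Hochberg adjustment. It passed in edgeR without MR replicate 4 (log2 fold change 1.20, adjusted p = 0.0424), where 0.244% of all genes passed. It also passed in edgeR without Sham replicate 3 (1.04, SE 0.27, adjusted p = 0.0396), where 5.28% of all genes passed. The unadjusted p of Sfrp2 in that edgeR fit was 0.00168, against 0.000705 with all 8 libraries.

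Frzb encodes an SFRP family member first known from cartilage. Its CPM was 3.32, 3.50, 5.58 and 3.71 in Sham libraries 1 to 4 and 5.42, 7.18, 7.08 and 5.66 in MR libraries 1 to 4. The groups overlapped only because Sham replicate 3 lay above MR replicate 1. Means were 4.03 ± 1.05 and 6.33 ± 0.925 CPM (SD, n = 4), a log2 fold change of 0.65 (SE 0.17, edgeR adjusted p = 0.0873). Without Sham replicate 3 the log2 fold change was 0.84 and the adjusted p in edgeR 0.00427, where 5.28% of all genes passed. Leaving out Sham replicates 1 and 3 together, a choice made after seeing the data, gave 0.80 and 0.00762, where 5.82% of all genes passed. Frzb did not pass in edgeR without Sham replicate 1 alone (0.56, adjusted p = 0.143).

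Sfrp1 was the most abundant antagonist in every library. Its CPM was 18.5, 20.5, 17.4 and 19.9 in Sham libraries 1 to 4 and 15, 16.2, 17.6 and 15.7 in MR libraries 1 to 4. MR replicate 3 exceeded Sham replicate 3, and every other pair of an MR and a Sham library had the lower value in MR. The means were 19.1 ± 1.42 and 16.1 ± 1.12 CPM (SD, n = 4), a log2 fold change of −0.24 (SE 0.08, edgeR adjusted p = 0.176). Sfrp1 passed in edgeR only when Sham replicates 1 and 3 were both left out (−0.33, adjusted p = 0.0371), where 5.82% of all genes passed.

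Wif1 encodes Wnt inhibitory factor. Its CPM was 2.41, 3.34, 3.33 and 4.53 in Sham libraries 1 to 4 and 3.42, 3.12, 4.13 and 2.95 in MR libraries 1 to 4. The lowest and the highest value of all 8 libraries were both in Sham. The log2 fold change was 0.00 (SE 0.18, edgeR adjusted p = 0.995), and it ranged from −0.14 to 0.17 when 1 library was left out.

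Sfrp5, known from adipose tissue as an antagonist of non-canonical Wnt5a, was read by 17 to 46 counts per library. Its CPM was 1.07, 0.592, 0.675 and 0.691 in Sham libraries 1 to 4 and 0.344, 0.598, 0.743 and 0.736 in MR libraries 1 to 4. Sham replicate 1 was the highest and MR replicate 1 the lowest, with the other 6 libraries close together. The log2 fold change was −0.32 (SE 0.30, edgeR adjusted p = 0.669). It was −0.11 without Sham replicate 1, −0.12 without MR replicate 1 and −0.09 without Sham replicates 1 and 3. The summed level of the adipocyte markers was 0.135 to 1.32 CPM in Sham and 0 to 2.08 CPM in MR, and its part in the Sfrp5 values was not tested.

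The lowest levels were those of Sfrp4 and Dkk2. Sfrp4 had 10, 8, 12 and 6 counts in Sham libraries 1 to 4 and 12, 13, 14 and 14 in MR libraries 1 to 4. As CPM, these groups overlapped, at 0.13 to 0.27 in Sham and 0.234 to 0.325 in MR, with a log2 fold change of 0.40 (SE 0.37, edgeR adjusted p = 0.661). That value was 0.23 without Sham replicate 4 and 0.76 without Sham replicates 1 and 3. Dkk2 had 4, 10, 6 and 6 counts in Sham and 12, 8, 6 and 20 in MR, and it did not pass the filter on low counts. With no filter its log2 fold change was 0.61 (SE 0.56, edgeR adjusted p = 0.669). No difference was found in either gene at these low counts, and whether deeper libraries would show one was not tested.

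The calls of Sfrp2 and Frzb also depended on the test. DESeq2 called both, with adjusted p of 0.00474 for Sfrp2 and 0.0133 for Frzb, in a fit where 3.98% of all genes passed. Limma-voom with quality weights called Frzb alone (adjusted p = 0.0458), where 2.75% passed. With no filter edgeR called both (5.81e-05 and 0.000248), where 3.06% passed. When a trend with exon length was removed, edgeR called Sfrp2 alone (0.0483), where 1.47% passed. In the fits that left out 1 library, the log2 fold change stayed between 0.75 and 1.20 for Sfrp2, between 0.56 and 0.84 for Frzb and between −0.29 and −0.21 for Sfrp1.

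**Figure D2:**
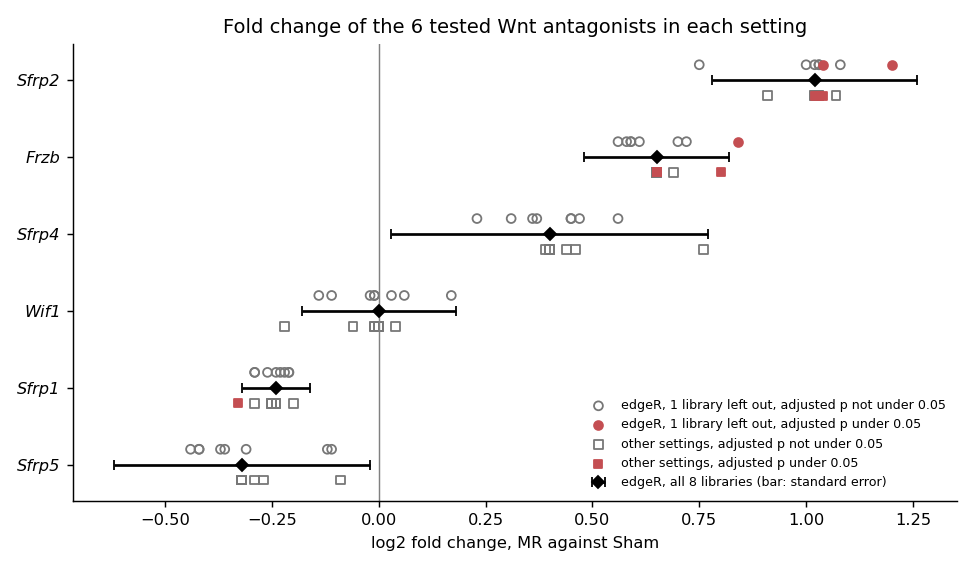
Log2 fold change of MR against Sham (x axis) for the 6 tested Wnt antagonists. Black diamonds with standard error bars are the edgeR fit of all 8 libraries, circles leave out 1 library and squares are other settings, filled red where the adjusted p was under 0.05; Sfrp2 and Frzb lie to the right of 0 and Sfrp1 to the left in every fit.

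Compared per length, the order over all libraries was Sfrp1 at 4.02 ± 0.451 CPM per kilobase of exon (SD over 8 libraries), Frzb at 1.60 ± 0.474, Wif1 at 1.40 ± 0.274, Sfrp2 at 0.917 ± 0.456, Sfrp5 at 0.358 ± 0.106, Sfrp4 at 0.0572 ± 0.0144 and Dkk2 at 0.0502 ± 0.0216. Frzb and Wif1 overlapped in both groups. Their order differed between the groups: in Sham the mean of Frzb (1.24) lay below that of Wif1 (1.40), and in MR it lay above (1.96 against 1.40). Sfrp4 and Dkk2 also overlapped in both groups. Wif1 exceeded Sfrp2 in all 4 Sham libraries with separate ranges (0.994 to 1.87 against 0.582 to 0.627), whereas in MR their ranges overlapped (1.21 to 1.70 against 0.762 to 1.88). Each remaining pair of neighbours had separate ranges in both groups.

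The summed level of the 7 genes did not separate the groups, at 8.09 ± 0.46 CPM per kilobase in Sham and 8.72 ± 1.15 in MR (SD, n = 4), with overlapping ranges. The make-up of that sum was described after the values were known and carries no test. Shares of a sum are tied together, so a rise in any gene lowers the shares of the others. Sfrp1 held 56.6%, 57.4%, 48.7% and 53.0% of it in Sham libraries 1 to 4 and 43.3%, 41.9%, 39.1% and 45.8% in MR libraries 1 to 4, so that every MR share was the lower. Sfrp2 held 6.89% to 7.79% in Sham and 9.71% to 18.2% in MR. The Frzb share was 21.2% in Sham replicate 3 and 13.2% to 13.7% in the other Sham libraries, against 21.2% to 25.1% in MR. Wif1 held 17.2 ± 3.50% and 16.1 ± 1.37% (SD, n = 4).

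**Figure D3:**
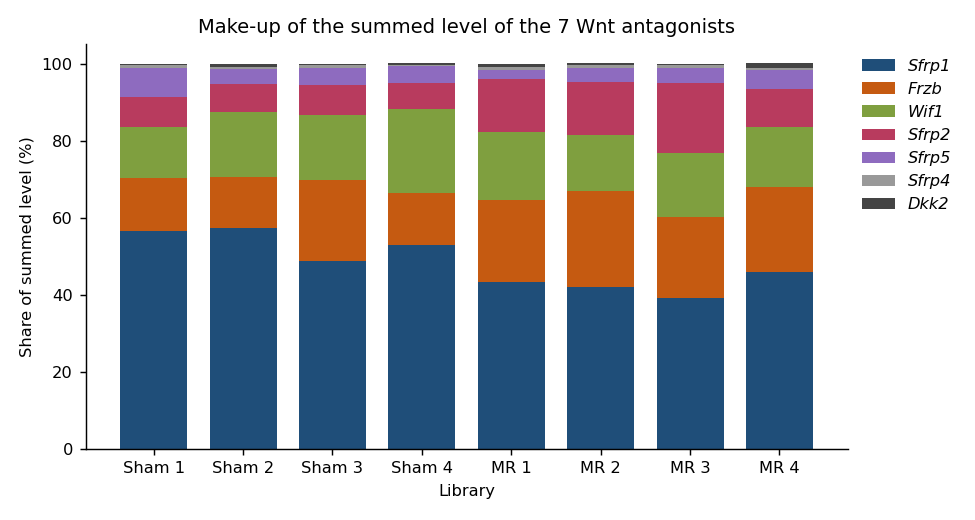
Share of the summed level of the 7 Wnt antagonists (y axis, %, from CPM per kilobase) held by each gene, with 1 bar per library. Sfrp1 is the dark blue segment, 48.7% to 57.4% in Sham and 39.1% to 45.8% in MR.

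Ratios between antagonists of the same library do not depend on the library total. The ratio of Sfrp2 to Sfrp1 was 0.138, 0.129, 0.158 and 0.130 in Sham libraries 1 to 4 and 0.318, 0.325, 0.466 and 0.212 in MR libraries 1 to 4. Frzb to Sfrp1 was 0.242, 0.231, 0.434 and 0.252 in Sham and 0.489, 0.599, 0.543 and 0.487 in MR. Both ratios were higher in every MR library than in every Sham library, with Sham replicate 3 nearest to MR. The ratio of Frzb to Sfrp2 overlapped between the groups (1.76 to 2.75 in Sham and 1.17 to 2.29 in MR). These ratios were described after the values of the genes were known and carry no test.

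Markers of cell types were set beside the antagonists. Of 7 tested markers of activated fibroblasts, 1 rose in edgeR: Thbs4, a matrix protein of the thrombospondin family, at a log2 fold change of 0.88 (adjusted p = 0.0201). Its call was lost without MR replicate 2, 3 or 4 and without Sham replicate 2 or 4, with an adjusted p of 0.0525 to 0.0893 in edgeR. Postn, which encodes periostin, was at 1.19 (edgeR adjusted p = 0.0678), and all 7 fold changes were positive. Without Sham replicate 3, where 5.28% of all genes passed, 3 of 8 tested passed in edgeR. They were Thbs4 (adjusted p = 0.00664), Postn (0.0355) and Meox1, a homeobox gene of activated fibroblasts (0.00104). The summed level of these markers was 130 to 156 CPM in Sham and 208 to 269 CPM in MR, with no overlap. Of 10 resident fibroblast markers 0 passed, and their sum overlapped (1880 to 1970 and 1870 to 2020 CPM). Without Sham replicate 3, 2 passed in edgeR in opposite directions, Col15a1 at 1.16 (adjusted p = 0.00529) and Scara5 at −0.30 (0.0448). Ventricular cardiomyocyte markers summed to 37800 to 44500 CPM in Sham and 32800 to 37400 CPM in MR, with 0 of 6 past the threshold in edgeR. Without Sham replicate 3, 3 of the 6 were lower past the threshold: Tnnt2 (adjusted p = 0.0211), Tnni3 (0.0207) and Myl2 (0.0404), all sarcomere genes. Myh6 alone gave 23000 of a mean sum of 42200 CPM in Sham and 18900 of 34800 CPM in MR. Actn2 and Ryr2 of the same list overlapped between the groups, with log2 fold changes of −0.0 and −0.06 in edgeR with all libraries. The sum of the epicardial and mesothelial markers was 11.4 to 19.5 CPM in Sham and 14.6 to 43.0 CPM in MR, highest in MR replicate 4, where Sfrp2 was lowest among the MR libraries. Valve and tendon-like stroma markers summed to 21.8 to 29.7 CPM in Sham and 22.9 to 29.5 CPM in MR. Of the remaining 7 lists, adipocytes aside, only the macrophage markers separated the groups in their sum, at 234 to 251 CPM in Sham and 212 to 232 CPM in MR. Of these markers 3 had a negative and 3 a positive log2 fold change. Only Cd163 (−0.36) and Mrc1 (−0.29) were lower without overlap, as were 3.91% of all genes tested. The edgeR fit without Sham replicate 3 also called markers of other lists. Cspg4 (pericyte), Cdh5 and Erg (endothelium) were higher in it. Sox17 (arterial endothelium), Cd163 (macrophage) and Cytl1 (valve and tendon-like stroma) were lower. The part of these cell types in the levels of the antagonists was not tested.

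Relative to the mean log2 CPM of the resident fibroblast markers, the difference between MR and Sham was 0.84 for Sfrp2 and −0.34 for Sfrp1 (log2 ratios), each without overlap. For Frzb it was 0.57 with overlap, through Sham replicate 3 at −3.79 against −3.80 in MR replicate 1. With Pdgfra alone, a receptor gene of resident fibroblasts, as the reference the differences were 0.74, −0.44 and 0.47 for Sfrp2, Sfrp1 and Frzb. Relative to the activated fibroblast markers the picture was another: Sfrp2 differed by 0.26 and Frzb by −0.01, both with overlap, while Sfrp1 was at −0.92 and Sfrp5 at −1.0, both lower in every MR library.

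**Figure D4:**
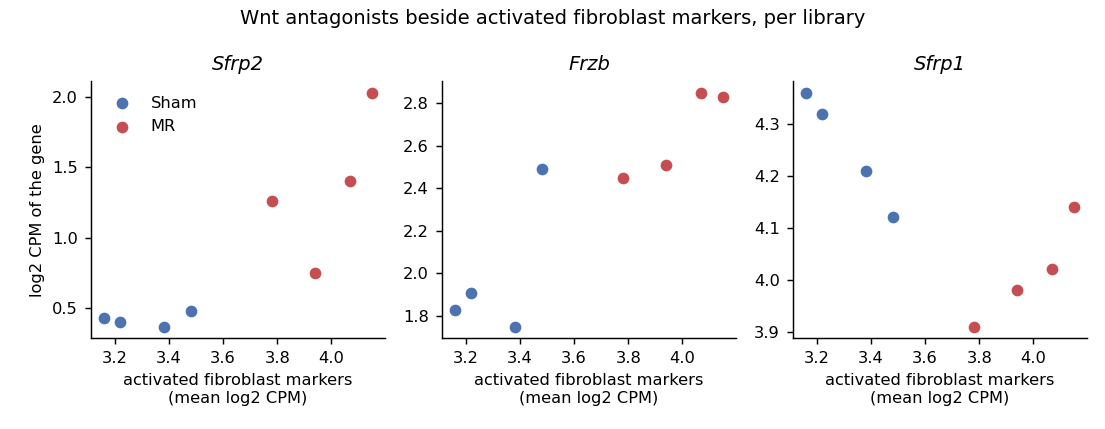
Log2 CPM of Sfrp2, Frzb and Sfrp1 (y axes) against the mean log2 CPM of the activated fibroblast markers (x axis), with 1 point per library, Sham in blue and MR in red. The marker mean is 3.16 to 3.48 in Sham and 3.78 to 4.15 in MR. The Frzb point of Sham replicate 3 lies level with the lower MR points.

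Genes with the pattern most like each antagonist were ranked by Pearson r of log2 CPM over the 8 libraries, which include the difference between the groups. For Sfrp2 the nearest were Fap, a protease of activated fibroblasts (r = 0.979, log2 fold change 0.42), Txndc5 (0.975, 0.21) and the lysyl oxidase gene Loxl3 (0.975, 0.46). For Frzb they were Bud13 (0.989, 0.25), Cyb561a3 (0.979, 0.27) and Ankrd1, a stress-responsive cardiac gene (0.978, 0.85). For Sfrp1 they were Hif3a (0.97, −0.66), the transferrin receptor gene Tfrc (0.954, −0.55) and Syncrip (0.953, −0.11). None of these 9 genes passed in edgeR. With the group means taken off, none of these was among the nearest 3: for Sfrp2 they were Pstpip1 (0.99), Mpeg1 (0.975) and Snhg17 (0.973), for Frzb Ephx3 (0.984), Robo4 (0.983) and Dpp7 (0.974), and for Sfrp1 Htra4 (0.982), Sfxn3 (0.948) and Olfr1034 (0.936). The nearest to Wif1 over the 8 libraries was Timp3, an inhibitor of matrix proteases (0.967, −0.01). Between antagonists, r was 0.81 for Sfrp2 and Frzb but 0.44 once the group means were taken off, and −0.70 and −0.16 for Sfrp1 and Frzb. For Sfrp1 and Sfrp2 it was −0.49 and turned to 0.49 once the group means were taken off. The r values of the named genes are the highest among 12186 genes over only 8 libraries and describe likeness only.

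The rest of the pathway and a list of procollagen C-propeptide removal were read together, as 86 further genes of the table, 64 of them tested. The procollagen list gave 5 of the tested genes, so the shares below are not those of the Wnt pathway alone. Of that list, Tll1 and Tll2 were higher with an unadjusted p under 0.05 in edgeR. In edgeR 0 of the 64 passed, and 17 (26.6%, against 15.1% of all genes tested) had an unadjusted p under 0.05, 10 higher and 7 lower, with a median log2 fold change of 0.00. DESeq2 called 6 (Ctnnbip1, Wnt5b, Tll1, Ccnd1 and Apcdd1 higher, Bcl9 lower), or 9.38% against 3.98% of all genes. Limma-voom with quality weights called 3 (Ctnnbip1, Ccnd1 and Bcl9), or 4.69% against 2.75%. With no filter edgeR called 6 of 82 (these 3, Tll1, Fzd8 and Trabd2b), or 7.32% against 3.06%, and with the length trend removed it called Bcl9 alone, or 1.56% against 1.47%. Without Sham replicate 3 it called 4 of 65 (Ctnnbip1, Ccnd1, Bcl9 and Trabd2b), or 6.15%, near the 5.28% of all genes. In the fit without MR replicate 4 edgeR called 0 of 64, against 0.244% of all genes. Because the lists were chosen with earlier results of these data known, none of these shares is a test of the lists.

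Among 16 other extracellular inhibitors, 8 were tested. Trabd2b, a protease that inactivates Wnt ligands, averaged 172 ± 20.6 CPM over the Sham libraries and 143 ± 5.96 over the MR libraries (SD, n = 4), a log2 fold change of −0.27 (edgeR adjusted p = 0.149). Apcdd1, a membrane inhibitor that is also a beta-catenin target, was at 3.58 ± 0.249 and 4.77 ± 0.407 CPM (0.41, edgeR adjusted p = 0.122). Both had groups that did not overlap, with Trabd2b below as were 3.91% of all genes tested and Apcdd1 above as were 4.19%. Of 19 Wnt ligands 8 were tested. Wnt5b, a non-canonical ligand, was at 2.34 to 3.58 CPM in Sham and 3.82 to 4.3 in MR (0.49, edgeR adjusted p = 0.116). Wnt2 had 0 to 23 counts per library (1.69, SE 0.56, edgeR adjusted p = 0.164). Wnt1 and Wnt3 were at 0 in every library, which allows up to 0.0511 to 0.0709 CPM (3 counts, counting error only). That bound takes each count as a separate fragment and would be higher if both ends of a fragment were counted.

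Of the ligand secretion genes, the acyltransferase gene Porcn was at 0.21 and the carrier gene Wls at −0.04 (edgeR adjusted p 0.533 and 0.822). Of 16 receptors and co-receptors 15 were tested, with Fzd6 at 0.21 and Fzd8 at −0.42 (edgeR adjusted p 0.145 and 0.242). Of the R-spondins, which stabilise frizzleds, and their receptors, 3 were tested, with the receptor gene Lgr6 at −0.12 and the ligand gene Rspo1 at 0.21 (edgeR adjusted p 0.567 and 0.844). Among 16 intracellular genes, Ctnnbip1, an inhibitor of the binding of beta-catenin to TCF factors, averaged 13.0 ± 1.65 CPM over the Sham libraries and 16.9 ± 0.823 over the MR libraries (SD, n = 4; 0.38, edgeR adjusted p = 0.0775). Bcl9, a co-activator of beta-catenin, was at 34.2 ± 3.0 and 27.5 ± 2.16 CPM (−0.31, edgeR adjusted p = 0.0877). Both had groups that did not overlap, Ctnnbip1 above as were 4.19% of all genes tested and Bcl9 below as were 3.91%. They were named for the lowest p of their list, so the lack of overlap adds no separate support.

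Of 15 beta-catenin target genes 10 were tested. Axin2, the most used readout of canonical signalling, was at 3.20 to 4.17 CPM in Sham and 3.32 to 4.2 in MR (log2 fold change 0.04, SE 0.13, edgeR adjusted p = 0.934). Ccnd1, the cyclin D1 gene, was at 42.1 ± 10.7 and 62.1 ± 5.61 CPM (SD, n = 4; 0.56, edgeR adjusted p = 0.104), and passed in edgeR without Sham replicate 3 (adjusted p = 0.000741). Among 5 genes of procollagen C-propeptide removal, Tll1, a proteinase of the Bmp1 family, was at 0.466 ± 0.111 and 0.931 ± 0.105 CPM (SD, n = 4). The log2 fold change of Tll1 was 1.0 (edgeR adjusted p = 0.0862), and its MR values lay above all Sham values, as for 4.19% of all genes tested. Tll2, of the same family, was at 0.65 with overlap (edgeR adjusted p = 0.302), and Bmp1 itself was at 0.01 (edgeR adjusted p = 0.971).

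**Figure D5:**
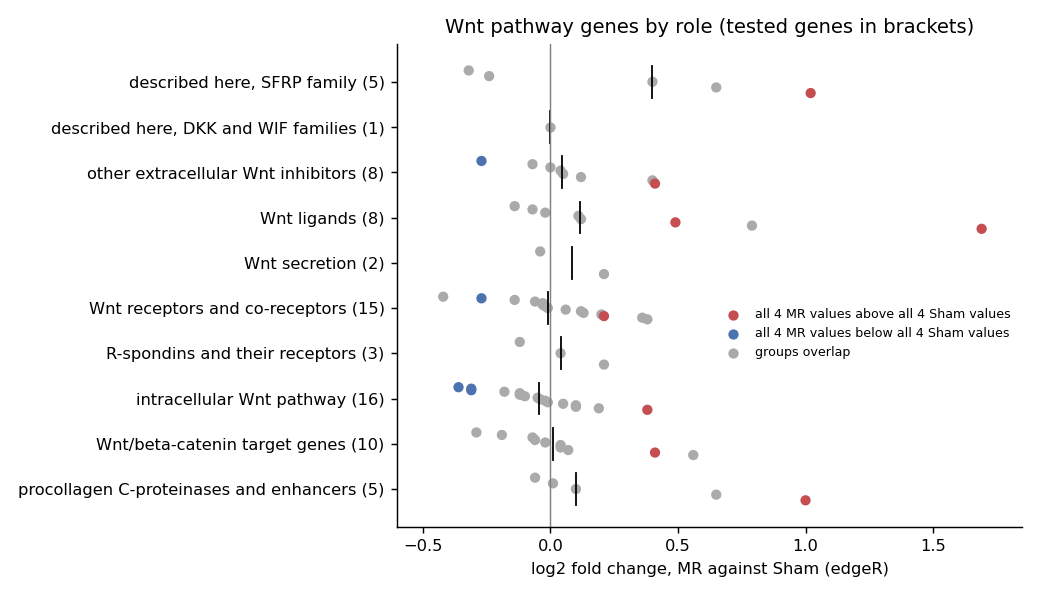
Log2 fold change of MR against Sham in edgeR (x axis) for the tested genes of each Wnt pathway list and of the procollagen list. The number tested is in brackets and black lines are list medians. Red and blue points are genes whose 4 MR values lie wholly above or below the 4 Sham values, and grey points overlap; the largest value is that of Wnt2 at 1.69.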

How the data were processed

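Whole-number read counts per Ensembl gene were deposited by the authors in 1 table with a column per library, not normalized, per the file headers and values. Per the labels' protocols, frozen heart was powdered, RNA extracted with TRIzol and libraries made with an ABclonal mRNA kit. The submitters' processing notes name HISAT2 2.0.5 and the build mm10 but not their roles. The sources used here do not give the counting tool, annotation release or strand setting. Genes with 2 counts outnumbered those with 1 by 2.27 to 2.82 times, so both ends of a fragment may have been counted.

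A GENCODE annotation of GRCm38 gave symbols, positions and exon lengths and matched 32350 of 33105 identifiers. Counts were filtered with filterByExpr (minimum count 10, minimum total 15), scaled by TMM and tested with the quasi-likelihood F test of edgeR 4.0.16 with robust moderation in R 4.3.3. Benjamini-Hochberg adjustment ran over the 16603 genes tested, with a threshold of 0.05. Log2 CPM used a prior count of 2. The fit was tested on simulated data. Other settings were RLE scaling, library totals only, no filter, at least 1 CPM in 4 libraries, DESeq2 1.42.0, voom of limma 3.58.1 with quality weights, no robust moderation, removal of a length trend, and leaving out each library.

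Genes named are the 7 antagonists, those of each pathway list past the threshold or the 2 with the lowest p, at most 2 per marker list, and the 3 most alike by r with a mean of at least 1 CPM. Axin2, Bmp1, Myh6, Actn2 and Ryr2 were named outside this rule with their values known, as were genes that passed only in another setting. The antagonists and all lists were chosen with earlier results of these data known. Replicate numbers only name libraries.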

Additional observations from a re-analysis of the deposited data

How the results depend on the processing

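Directions of Sfrp1, Sfrp2, Sfrp4, Sfrp5 and Frzb were kept in every setting that could test them, while Wif1, at 0.00, took both signs (−0.22 to 0.17). Antagonists past the threshold numbered 2 in DESeq2, 2 with no filter, 1 in limma-voom and 1 with the length trend removed, against 0 in edgeR with all libraries. Leaving out 1 library gave 0 to 2, with 1 without MR replicate 4 and 2 without Sham replicate 3, and leaving out Sham replicates 1 and 3 together, added after seeing the data, gave 2. Genes past the threshold numbered 660 in DESeq2, 457 in limma-voom, 936 with no filter, 244 with the length trend removed and 1007 without Sham replicates 1 and 3, against 76; leaving out 1 library gave 3 to 887. Sfrp2 passed in DESeq2 (1.02), with no filter (1.03) and with the length trend removed (1.04), and leaving out 1 library gave 0.75 to 1.20. Frzb passed in DESeq2, limma-voom and with no filter (0.65 in each) and without Sham replicates 1 and 3 (0.80), and leaving out 1 library gave 0.56 to 0.84. Sfrp1 passed without Sham replicates 1 and 3 (−0.33). The cause of these changes was not tested. Levels per length moved by less than the spread between libraries when the longest transcript gave the length. Levels relative to resident fibroblast markers did so when Pdgfra alone, a member of that list, was the reference. With the activated fibroblast markers as reference the differences were 0.26 for Sfrp2, −0.01 for Frzb and −0.92 for Sfrp1. Against the resident markers they were 0.84, 0.57 and −0.34. No paired analysis was possible because no replicate number is shared between the groups in the titles. At 4 to 20 counts per library in Dkk2 and 6 to 14 in Sfrp4, counting error limits any comparison.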
